A study of Mus musculus with 24 samples.

Results

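The glucocorticoid response genes described here are Nr3c1, Sgk1, Fkbp5, Tsc22d3, Zbtb16, Klf9, Arrdc2, Pdk4, Cdkn1a and Errfi1. They were chosen by name, as the rows of the gene count table that carry these symbols, and all 10 were found once each among 43346 genes. All 10 passed the filter on low counts and were tested with the other genes, 19678 in all. The libraries come from the cortex of 24 C57BL/6 mice, 1 library per mouse. Every mouse was heterozygous for Cx3cr1CreER, a Cre recombinase that is driven by a microglial promoter and works only with tamoxifen, and was homozygous for a TREM2 construct. The construct was either the common form (TREM2-WT+/+) or R47H (TREM2-R47H+/+), a variant of this microglial receptor linked to Alzheimer's disease risk. Mice given tamoxifen are called induced and mice given corn oil are called control, which makes the groups WT_control, WT_induced, R47H_control and R47H_induced, with 6 mice in each. The series text gives 3 males and 3 females per group, and the sources used here give no ages. None of the groups received tamoxifen without carrying Cre, so tamoxifen itself and the induction of TREM2 cannot be told apart, and each construct is 1 mouse line.

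Glucocorticoids are adrenal steroid hormones that enter cells and bind the glucocorticoid receptor, which Nr3c1 encodes. The bound receptor leaves its chaperones, moves to the nucleus and binds response elements in DNA, where it raises a set of genes that many tissues share. In the brain these genes follow the daily hormone rhythm and stress, including handling and injection, and they are expressed in neurons, glia and vessel cells alike. In cortex as a whole, fewer cells of a type and less RNA per cell cannot be told apart.

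Library depth, as the total count, lay between 27933505 and 56082520. The rRNA-like genes, whose share of a library is a sign of its quality, took 15.9% ± 3.18 of counts in WT_control and 18.3% ± 3.21 in WT_induced, against 20.3% ± 2.73 in R47H_control and 17.04% ± 1.69 in R47H_induced (3 genes; SD, n = 6). Microglial markers were high in WT_induced replicate 6, whose 12 genes summed to 467 CPM. The median of that group was 299 CPM. For Nr3c1, Errfi1 and the pairs of members, values are also given without this library. All 10 excitatory neuron markers, all 11 astrocyte markers and all 12 microglial markers were detected, as cortex should show.

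Levels are given in CPM, with library totals scaled by the TMM method. Per kilobase of gene length, Klf9 had the highest level over the 24 libraries, at 46.2 ± 2.91 CPM per kb (SD over libraries). Nr3c1 followed at 17.6 ± 0.78, Sgk1 at 12.7 ± 2.59, Tsc22d3 at 11.4 ± 1.36 and Zbtb16 at 8.26 ± 1.14 CPM per kb. Cdkn1a stood at 7.003 ± 0.88, Errfi1 at 6.98 ± 0.58, Fkbp5 at 4.74 ± 0.44, Pdk4 at 3.15 ± 0.43 and Arrdc2 at 2.62 ± 0.52 CPM per kb. Neighbours in this order did not differ beyond their spread for Sgk1 and Tsc22d3, for Zbtb16 and Cdkn1a, for Cdkn1a and Errfi1, and for Pdk4 and Arrdc2. The members also differed in how much they varied between mice. The highest library was 2.21 times the lowest for Arrdc2 and 2.14 times for Sgk1, against 1.17 times for Nr3c1 and 1.29 times for Klf9.

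**Figure D1:**
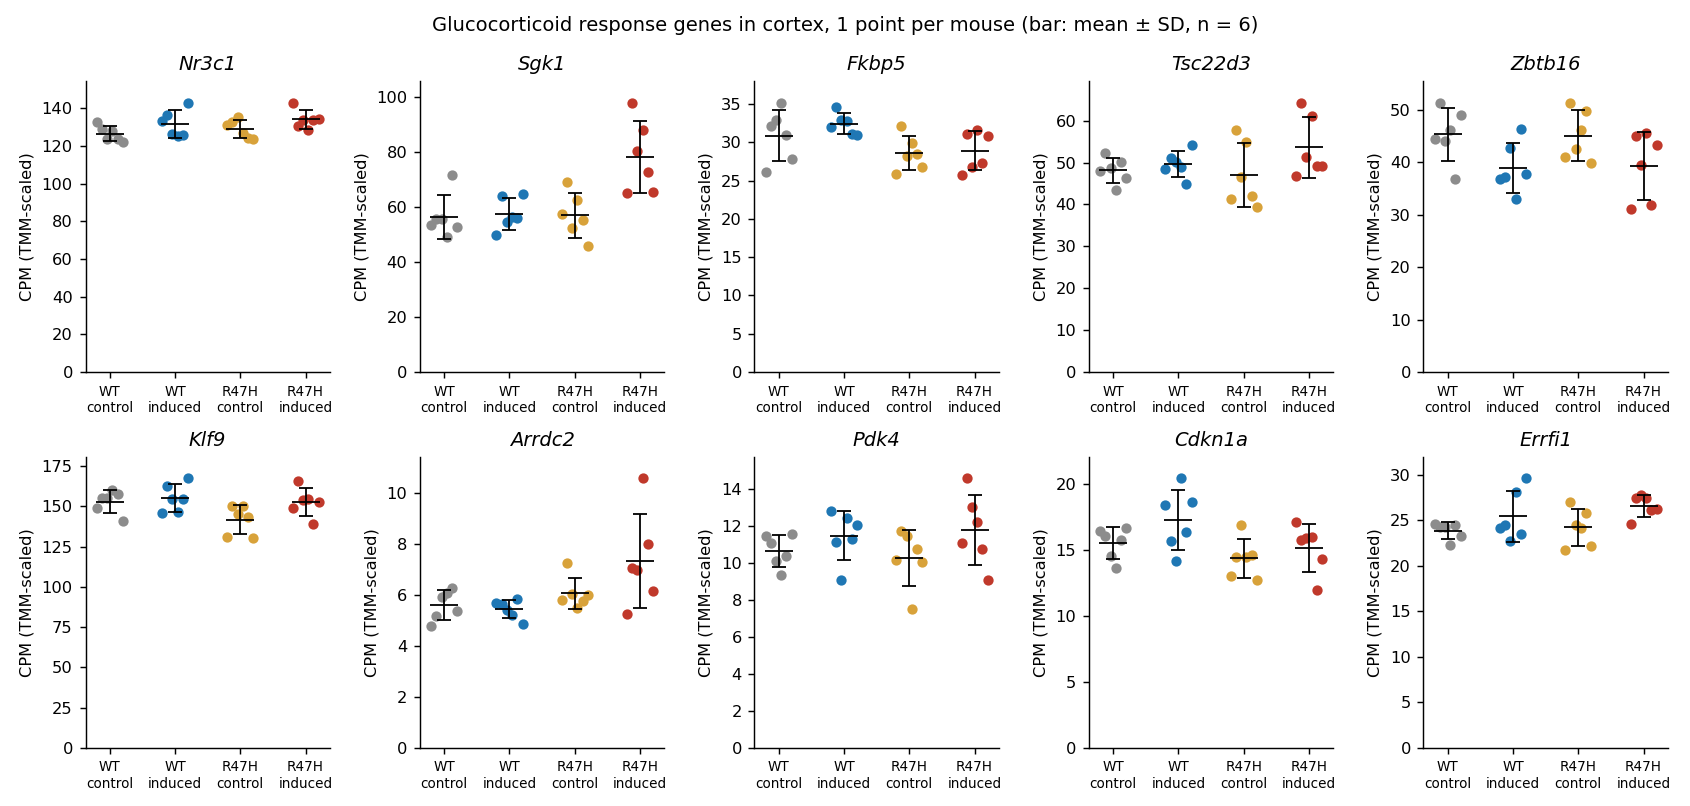
CPM of each gene (vertical axis, from 0) in the 4 groups (horizontal axis), 1 point per mouse, with the group mean and SD as a black bar. Sgk1 in R47H_induced sits between 65.1 and 97.8 CPM, above every WT_induced library, while Nr3c1 is nearly level across the groups.

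Nr3c1, the receptor itself (chromosome 18, 39410545 to 39491301, mm10), was the steadiest member. Its level was 127 ± 3.98 CPM in WT_control and 132 ± 7.24 CPM in WT_induced, against 129 ± 4.77 CPM in R47H_control and 134 ± 4.96 CPM in R47H_induced (SD, n = 6). All 4 groups overlapped, with libraries between 122 and 143 CPM. Induction gave a log2 fold change of 0.06 (SE 0.03) in both WT and R47H mice, and R47H against WT was 0.03 (SE 0.03) in both control and induced mice. None of these passed (edgeR adjusted p from 0.705 to 0.9995). The 95% interval of R47H against WT in induced mice ran from -0.04 to 0.10.

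Sgk1 encodes a kinase that acts on ion channels and transporters and is a direct target of the receptor in many tissues. It lies on chromosome 10, 21882184 to 21999903 (mm10). Its lowest, median and highest libraries were 48.9, 54.4 and 71.6 CPM in WT_control, and 49.6, 56.0 and 64.6 CPM in WT_induced. They were 45.6, 56.1 and 69.1 CPM in R47H_control, and 65.1, 76.4 and 97.8 CPM in R47H_induced. The first 3 groups overlapped almost fully, and R47H_induced stood above them: all 6 of its libraries exceeded the highest WT_induced library, and 4 exceeded the highest R47H_control library. Sgk1 was higher in R47H_induced than in WT_induced by 0.44 on the log2 scale (SE 0.11, 95% interval 0.21 to 0.68), a 1.36-fold difference, with an edgeR adjusted p of 0.0202. The exact permutation test of Sgk1 alone gave p = 0.00216 (two-sided, 6 against 6), the smallest that this design allows.

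The same R47H_induced libraries enter the induction in R47H mice, so that comparison is not independent of the one above. Sgk1 was at 0.46 there (SE 0.11, unadjusted p = 0.000541, exact permutation p = 0.00866), which did not pass over all genes (edgeR adjusted p = 0.731). In WT mice the induction was 0.03 (SE 0.11), with a 95% interval from -0.20 to 0.27. The difference of these inductions was 0.43 (SE 0.16, 95% interval 0.10 to 0.76), and it too did not pass (edgeR adjusted p = 0.569). A larger Sgk1 response in R47H than in WT mice was therefore not shown at the level of all genes. In control mice the lines were close, with R47H against WT at 0.02 (SE 0.11).

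The promoter table of RefSeq (GRCm38.p6, 250 bases before to 50 after each start site) held 17 windows for 8 of the 10 genes, 6 of them for Sgk1. They were searched on both strands for the full glucocorticoid response element, which is AGAACA, any 3 bases and then TGTTCT, for its single arm AGAACA, which also lies within the full element, for the E-box CACGTG, for the cAMP response element TGACGTCA and for the GC box GGGCGG. The full element occurred in 3 of 32851 windows in the table (0.00913%), and among the members only in a window of Sgk1. The Sgk1 window is shown because it carries that element in a gene that was higher in R47H_induced than in WT_induced; capitals mark the element, the single arms and the E-box, and a GC box is left in lower case. The match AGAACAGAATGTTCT spans 21993701 to 21993715 on chromosome 10 and ends 175 bases before the start site of this window. It ends 951 bases before the start of another Sgk1 transcript, at 21994666. The match is a description of these letters and says nothing on binding in these mice.
Sgk1, chr10:21993640-21993939, + strand: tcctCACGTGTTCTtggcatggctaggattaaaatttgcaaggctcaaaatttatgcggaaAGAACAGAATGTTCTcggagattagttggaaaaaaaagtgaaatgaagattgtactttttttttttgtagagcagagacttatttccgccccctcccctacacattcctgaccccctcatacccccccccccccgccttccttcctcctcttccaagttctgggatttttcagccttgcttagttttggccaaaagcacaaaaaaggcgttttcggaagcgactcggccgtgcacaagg

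The single arm was found in 19.0% of all windows and in windows of Sgk1 and Tsc22d3. The E-box was found in 7.15% of windows and in those of Sgk1 and Fkbp5, the cAMP response element in 1.79% and in Errfi1, and the GC box in 35.7% and in 6 of the members.

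Arrdc2 encodes an arrestin-domain protein of a family that takes part in protein sorting and turnover. It lies on chromosome 8, 70835155 to 70839720 (mm10), and had the lowest counts of the members, from 147 to 576 reads per library. Its lowest, median and highest libraries were 4.78, 5.64 and 6.24 CPM in WT_control, and 4.86, 5.53 and 5.85 CPM in WT_induced. They were 5.49, 5.89 and 7.23 CPM in R47H_control, and 5.23, 7.01 and 10.6 CPM in R47H_induced. Here 5 of the 6 R47H_induced libraries exceeded the highest WT_induced library, and replicate 1 lay among the WT_induced values. Arrdc2 was higher in R47H_induced than in WT_induced by 0.44 (SE 0.11, 95% interval 0.21 to 0.67; edgeR adjusted p = 0.0178; exact permutation p = 0.0173). Without R47H_induced replicate 4, the highest library, the difference was 0.30 and did not pass (adjusted p = 0.0568). That library was also the deepest of the 24, with a total count of 56082520. Among mice of 1 group, the r of Arrdc2 with the total count was 0.44, and the part of depth was not tested. In a fit on the 12 induced libraries alone it was 0.44 with an adjusted p of 0.0758. In control mice R47H against WT was 0.12 (SE 0.11), and the mean of both line differences was 0.28 (SE 0.08, edgeR adjusted p = 0.0189). Arrdc2's RefSeq window is printed as that of the other member called higher in induced mice, and it holds neither the full element nor its single arm; capitals mark the GC boxes, 3 of which overlap.
Arrdc2, chr8:70839671-70839970, - strand: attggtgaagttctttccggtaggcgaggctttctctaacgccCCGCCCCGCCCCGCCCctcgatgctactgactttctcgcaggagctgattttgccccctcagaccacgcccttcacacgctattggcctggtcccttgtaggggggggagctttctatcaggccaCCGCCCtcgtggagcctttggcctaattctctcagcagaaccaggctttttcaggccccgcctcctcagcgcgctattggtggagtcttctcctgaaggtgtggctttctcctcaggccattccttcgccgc

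Fkbp5 encodes a co-chaperone that holds the receptor in a state of low hormone affinity, and its induction by the receptor forms a feedback loop. It lies on chromosome 17, 28399095 to 28517524 (mm10). The lowest, median and highest libraries were 26.1, 31.5 and 35.2 CPM in WT_control, and 31.0, 32.4 and 34.6 CPM in WT_induced. They were 25.9, 28.3 and 32.1 CPM in R47H_control, and 25.7, 29.1 and 31.5 CPM in R47H_induced. Both R47H groups lay towards the lower end of the WT values, with overlap in each treatment, and 4 of the 6 R47H_induced libraries were below the lowest WT_induced library. Fkbp5 was lower in R47H than in WT mice by the mean of both line differences, at -0.14 (SE 0.05, edgeR adjusted p = 0.0437). Within treatments it was -0.11 (SE 0.06, adjusted p = 0.357) in control and -0.16 (SE 0.06, adjusted p = 0.136; exact permutation p = 0.0130) in induced mice. The call was lost when any 1 of 15 libraries was left out and with choroid plexus markers in the fit (-0.12, adjusted p = 0.103). The direction of Fkbp5 was opposite to that of Sgk1 and Arrdc2, and its inductions were 0.07 (SE 0.06) in WT and 0.02 (SE 0.06) in R47H mice. The Fkbp5 window is printed as that of the member called lower; capitals mark the E-box, and its GC boxes are left in lower case.
Fkbp5, chr17:28486100-28486399, - strand: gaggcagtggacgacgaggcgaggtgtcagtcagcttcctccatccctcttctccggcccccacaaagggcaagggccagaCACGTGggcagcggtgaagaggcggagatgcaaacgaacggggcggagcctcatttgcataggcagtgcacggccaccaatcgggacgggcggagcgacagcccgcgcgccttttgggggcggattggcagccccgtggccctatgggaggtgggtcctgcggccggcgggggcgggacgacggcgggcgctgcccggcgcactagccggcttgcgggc

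Tsc22d3, Zbtb16 and Klf9 encode nuclear regulators that the receptor raises. Tsc22d3 (chromosome X, 140539528 to 140600659), also known as GILZ, restrains inflammatory transcription factors. It was at 48.2 ± 3.01 CPM in WT_control and 49.6 ± 3.10 CPM in WT_induced, against 46.995 ± 7.63 CPM in R47H_control and 53.7 ± 7.23 CPM in R47H_induced (SD, n = 6). The groups overlapped, and the spread in R47H mice was wider than in WT mice by its SD, a difference that was not tested. The induction in R47H mice was 0.19 (SE 0.09, edgeR adjusted p = 0.960), and R47H against WT in induced mice was 0.11 (SE 0.09, adjusted p = 0.532).

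Zbtb16 (chromosome 9, 48654311 to 48835945), the zinc-finger repressor PLZF, was the only member with negative fitted values in both inductions. Its level was 45.3 ± 4.97 CPM in WT_control and 38.9 ± 4.72 in WT_induced, and 45.1 ± 4.78 in R47H_control and 39.3 ± 6.47 in R47H_induced (SD, n = 6). Induced and control libraries overlapped in both lines. The induction was -0.22 (SE 0.10) in WT and -0.19 (SE 0.10) in R47H mice, and their mean was -0.21 (SE 0.07, unadjusted p = 0.0101), which did not pass over all genes (edgeR adjusted p = 0.995). Klf9 (chromosome 19, 23141226 to 23166911), a Krüppel-like factor of neurons, was at 153 ± 7.14 CPM in WT_control and 155 ± 8.57 CPM in WT_induced, against 142 ± 9.05 CPM in R47H_control and 153 ± 8.72 CPM in R47H_induced (SD, n = 6). R47H_control was the lowest group, with a difference from WT_control of -0.11 (SE 0.04, edgeR adjusted p = 0.137; exact permutation p = 0.0411). With library totals in place of TMM scaling this was -0.17 with an adjusted p of 0.0314.

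Pdk4, Cdkn1a and Errfi1 act on metabolism, the cell cycle and growth factor signalling. Pdk4 (chromosome 6, 5483351 to 5496309) encodes a kinase that slows glucose oxidation and also answers to fasting. It was at 10.7 ± 0.86 CPM in WT_control and 11.5 ± 1.34 CPM in WT_induced, against 10.3 ± 1.52 CPM in R47H_control and 11.8 ± 1.91 CPM in R47H_induced (SD, n = 6), and its inductions of 0.10 (SE 0.10) and 0.19 (SE 0.10) did not pass. Of 13 fasting, PPAR and FoxO target genes, 10 had positive fitted values in the induction in WT mice and 6 in R47H mice, and 0 passed in either.

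Cdkn1a (chromosome 17, 29090979 to 29100722), the cell cycle inhibitor p21, shares 7.68% of its exon bases in GENCODE vM21 with another annotated gene, AC167363.2. Cdkn1a has 3553 exon bases there, against a length of 2223 bases in the count data. Whether the shared bases were counted is therefore not known, and some reads of Cdkn1a are uncertain. The gene was at 15.5 ± 1.198 CPM in WT_control and 17.3 ± 2.29 CPM in WT_induced, against 14.4 ± 1.47 CPM in R47H_control and 15.2 ± 1.81 CPM in R47H_induced (SD, n = 6). R47H against WT was -0.19 (SE 0.09, edgeR adjusted p = 0.209) in induced mice. Cdkn1a is also a target of p53, and 7 of 12 other p53 targets had positive values in that comparison, with a median of 0.04 and 0 called. Errfi1 (chromosome 4, 150853919 to 150868892), an inhibitor of the EGF receptor, had its highest mean in R47H_induced, at 26.6 ± 1.21 CPM. It was at 23.8 ± 0.89 CPM in WT_control, 25.4 ± 2.77 in WT_induced and 24.2 ± 2.03 in R47H_control (SD, n = 6). Its induction in R47H mice was 0.13 (SE 0.06, edgeR adjusted p = 0.949; exact permutation p = 0.0346). In WT mice the induction of Errfi1 was 0.09 (SE 0.06), and 0.04 without WT_induced replicate 6. For Errfi1, R47H against WT in induced mice was 0.06 (SE 0.06), and 0.11 without that library, and none of these passed. Over the 40 exact permutation tests of single members, 6 gave an unadjusted p below 0.05, and all 6 are given with their genes here.

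Across the members, no gene rose or fell with induction over all genes. In WT mice 0 of 10 were called, 8 had positive values and the median was 0.05, against a median of 0.00 for all tested genes. In R47H mice 0 of 10 were called, 9 had positive values and the median was 0.12, again against 0.00 for all genes. The background in both was 0% of genes called by edgeR. At an unadjusted p below 0.05, there was 1 member in WT mice (Zbtb16, negative) and there were 5 in R47H mice (Sgk1, Arrdc2, Klf9, Errfi1 and Tsc22d3, all positive), and the shares of all genes were 7.85% and 5.11%. No member had groups that did not overlap in R47H mice, where 0.34% of genes did. For the difference of inductions 0 of 10 members and 0% of genes were called, with 1 member (Sgk1) and 7.94% of genes at an unadjusted p below 0.05. For the mean induction 0 of 10 members and 0% of genes were called, with 5 members (Sgk1, Zbtb16, Errfi1, Nr3c1 and Klf9) and 4.64% of genes at an unadjusted p below 0.05. DESeq2 called 10 genes in the induction in WT mice, 4 in R47H mice, 3 for the difference and 4 for the mean, with 0 members among them, and limma-voom called 0 genes in each.

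**Figure D2:**
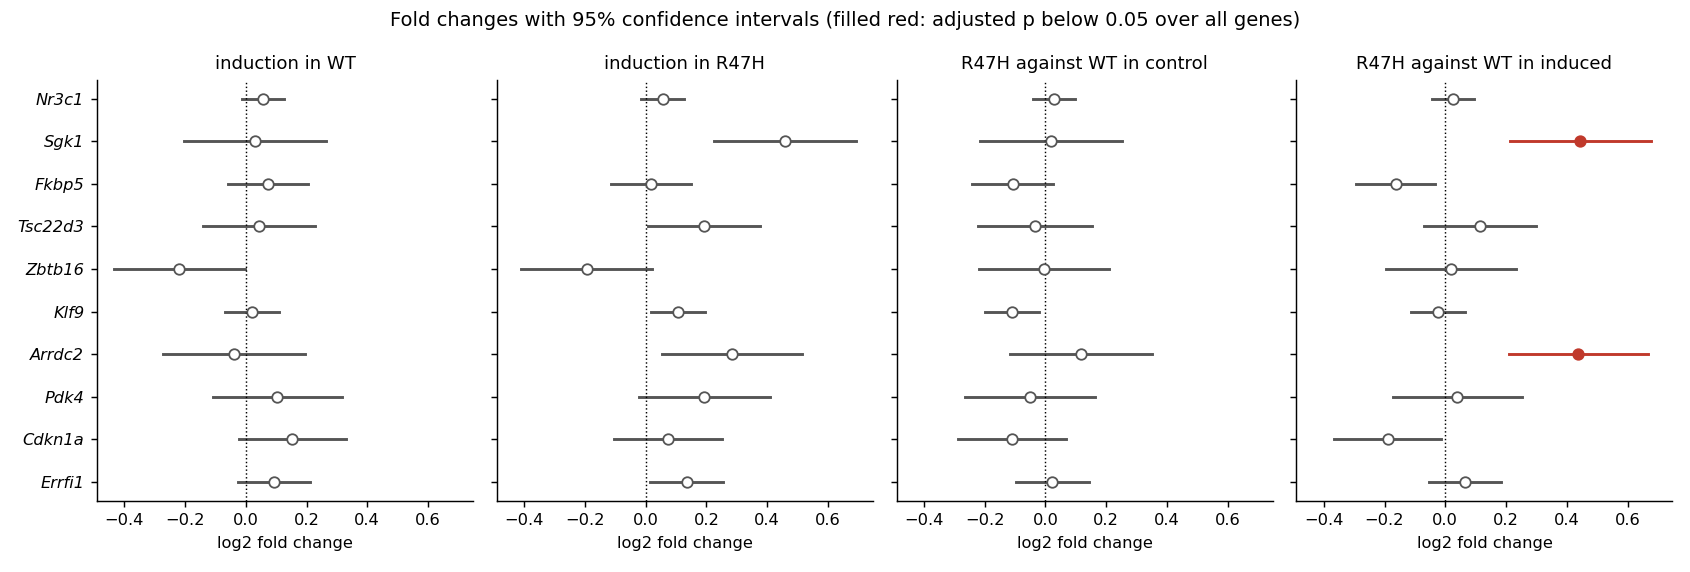
Log2 fold change (horizontal axis) of each gene (vertical axis) with its 95% confidence interval in 4 comparisons. Filled red points mark the genes called over all tested genes, Sgk1 and Arrdc2 at 0.44 each in induced mice; every other interval belongs to a gene that was not called.

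Between the lines, R47H against WT in control mice gave 0 of 10 members called, where edgeR called 5.74% of all genes (2.69% higher and 3.04% lower), and 1 member (Klf9) stood at an unadjusted p below 0.05 (20.5% of genes). In induced mice 2 of 10 were called, both higher, where 5.8% of all genes were called in either direction, 2.59% higher and 3.22% lower. There 4 members (Sgk1, Arrdc2, Fkbp5 and Cdkn1a) and 20.1% of genes had an unadjusted p below 0.05. Only Sgk1 had groups that did not overlap there, as 3.25% of all genes did. For the mean of both line differences 2 of 10 were called, Arrdc2 higher and Fkbp5 lower, where 13.8% of genes were called (6.65% higher and 7.2% lower) and 5 members and 27.2% of genes had an unadjusted p below 0.05. Sgk1 narrowly missed in that comparison, at 0.23 (SE 0.08, adjusted p = 0.0565). A line difference that is present in both treatments may belong to the construct or to any other difference between the lines, and these cannot be told apart.

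Levels of other gene lists were compared between the lines as well, and few of their genes were called. All 10 choroid plexus markers had positive values for R47H against WT, with a median of 0.77 in control and 0.65 in induced mice and 0 called. Their summed level spanned 200 to 711 CPM in WT_control and 216 to 563 CPM in WT_induced, against 214 to 1045 CPM in R47H_control and 207 to 1140 CPM in R47H_induced. With their mean level in the fit, Sgk1 and Arrdc2 in induced mice were at 0.46 and 0.47 and were still called (edgeR adjusted p = 0.0257 and 0.0136). Immediate early genes, a mark of recent neuronal activity, had positive values in 1 of 19 for R47H against WT in control mice (median -0.39, 1 called lower) and in 11 of 19 in induced mice (median 0.04, 1 called each way). Their summed level spanned 624.9 to 1157 CPM in WT_control and 537 to 1176 CPM in WT_induced, against 550 to 1063 CPM in R47H_control and 714 to 1108 CPM in R47H_induced. Immediate early genes were also positive in 17 of 19 (median 0.28) and circadian clock genes in 13 of 16 (median 0.08) in the induction in R47H mice, the comparison in which 9 of 10 members were positive, with 0 called in either list. In induced mice, the comparison in which Sgk1 and Arrdc2 were called, R47H against WT was positive for 1 of 12 microglial markers (median -0.14, 0 called), 1 of 12 endothelial markers (median -0.13, 0 called) and 1 of 10 mural cell markers (median -0.11, 1 called lower). Positive values there were also few for inhibitory neuron (2 of 10), oligodendrocyte (3 of 12), astrocyte (4 of 11) and blood markers (2 of 6). Excitatory neuron markers were positive in 6 of 10 and meningeal fibroblast markers in 5 of 10, against 50.5% of all genes. The microglial markers summed to 272 to 467 CPM in WT_induced and to 282 to 299.5 CPM in R47H_induced. The 467 CPM belonged to WT_induced replicate 6, and the medians were close, at 299 CPM in WT_induced and 292 CPM in R47H_induced. The fold changes of these markers are not given without replicate 6, so their direction may rest on that library. In the control groups the microglial markers summed to 285 to 312 CPM (WT) and 302 to 328 CPM (R47H). The endothelial markers summed to 250.3 to 346 CPM in WT_induced and 273 to 299.9 CPM in R47H_induced, with 253 to 326 CPM (WT) and 273 to 315 CPM (R47H) in the control groups. The mural cell markers summed to 171 to 199 CPM in WT_induced and 152 to 165 CPM in R47H_induced, with 174 to 193 CPM (WT) and 158 to 183 CPM (R47H) in the control groups. The mural cell ranges of WT_induced and R47H_induced did not overlap, and those of the microglial and endothelial markers did. No marker of these 3 lists was at 0 in all 24 libraries. Circadian clock genes were positive in 12 of 16 (median 0.08) in the same comparison. With the rRNA-like share in the fit, Sgk1 was at 0.46 (adjusted p = 0.0240) and Arrdc2 at 0.45 (adjusted p = 0.0204) in induced mice. Among mice of 1 group, the r of Sgk1 was 0.05 with the mean level of immediate early genes and 0.32 with clock genes. It was 0.16 with microglial, 0.19 with endothelial, 0.08 with mural cell and -0.11 with choroid plexus markers. For Arrdc2 these were -0.49, 0.24, -0.23, -0.02, 0.12 and -0.22 in the same order. The fits with choroid plexus markers and with the rRNA-like share show only that both calls held. The part of these measures in the members' values was not tested.

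The receptor's partners and the wider target list were read by the same rule. Of 16 genes for receptors, steroid-converting enzymes, chaperones and cofactors (Nr3c1 included), 0 were called in either induction. Those with the lowest p in WT mice were Hsd11b2, an enzyme that inactivates glucocorticoids, at -0.70 (SE 0.33) and Nr3c1 itself at 0.06 (SE 0.03). Hsd11b2 had very low levels, at 0.24 ± 0.07 CPM in WT_control and 0.15 ± 0.07 CPM in WT_induced (SD, n = 6). In R47H mice Crebbp, a coactivator, was at -0.12 (SE 0.06). Hsd11b1, the enzyme that regenerates active glucocorticoid inside cells, was lower in R47H_control (7.33 ± 0.83 CPM) than in WT_control (9.01 ± 0.94 CPM; SD, n = 6), at -0.29 (SE 0.08, edgeR adjusted p = 0.0218). In induced mice it was at -0.19 (SE 0.08, adjusted p = 0.151), and the mean of both was -0.24 (adjusted p = 0.00282). Ncor1, a corepressor, was lower by the mean of both line differences at -0.06 (SE 0.02, adjusted p = 0.0297). In induced mice 0 of the 16 were called, and the lowest p belonged to Stip1, a co-chaperone, at -0.10 (SE 0.04), and Nr3c2, the mineralocorticoid receptor that also binds glucocorticoids, at 0.10 (SE 0.04).

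Of 24 other glucocorticoid targets, 23 were tested (Lcn2 was too low). None passed in the inductions, where 14 of 23 were positive in WT mice (median 0.05) and 15 of 23 in R47H mice (median 0.10). The lowest p in WT mice belonged to Txnip, a regulator of glucose uptake, at 0.26 (SE 0.07, edgeR adjusted p = 0.452), and Mt2, a metallothionein, at 0.24 (SE 0.09, adjusted p = 0.492). In R47H mice it belonged to Map3k6, a stress kinase, at -0.69 (SE 0.16, adjusted p = 0.668), and Per1, a clock gene with glucocorticoid response elements, at 0.40 (SE 0.10, adjusted p = 0.755). Per1 had 95.1 ± 17.5 CPM in WT_control and 87.0 ± 12.6 CPM in WT_induced, and 77.9 ± 5.60 CPM in R47H_control and 103 ± 3.30 CPM in R47H_induced (SD, n = 6). Its difference of inductions was 0.53 (SE 0.15, adjusted p = 0.433), with an induction in WT mice of -0.13 (SE 0.10). R47H_control was the lowest of the 4 groups for Per1, and R47H against WT in control mice was -0.29 (SE 0.10, adjusted p = 0.106). For the difference of inductions the second lowest p, after Per1, belonged to Map3k6, at -0.55 (SE 0.21).

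Between the lines, 2 of 23 targets were called higher in control mice, where 2.69% of all genes were called higher. In induced mice 3 were called higher and 1 lower, where the shares of all genes were 2.59% and 3.22%. Cdkn1c, the cell cycle inhibitor p57, was higher in both treatments, at 0.54 (SE 0.10) in each (edgeR adjusted p = 0.000788 and 0.000772). It was at 5.17 ± 0.44 CPM in WT_control and 4.83 ± 0.28 CPM in WT_induced, against 7.55 ± 1.22 CPM in R47H_control and 7.003 ± 0.93 CPM in R47H_induced (SD, n = 6). Fam107a, an actin-associated protein of astrocytes and neurons, was higher in control mice at 0.39 (SE 0.10, adjusted p = 0.0233). In induced mice Klf15, a metabolic transcription factor, was at 0.21 (SE 0.06, adjusted p = 0.0466) and Rhob, a small GTPase, at 0.14 (SE 0.04, adjusted p = 0.0388). Map3k6 was lower there, at -0.95 (SE 0.15, adjusted p = 0.000254), with 2.97 ± 0.38 CPM in WT_induced and 1.53 ± 0.49 in R47H_induced (SD, n = 6). By the mean of both line differences Cdkn1c, Rhob, Fam107a, Klf15 and Ddit4, an inhibitor of mTOR signalling, were higher and Map3k6 was lower, where 6.65% of all genes were called higher and 7.2% lower. Known targets thus stood on both sides between the lines, as Sgk1 and Fkbp5 did among the members.

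**Figure D3:**
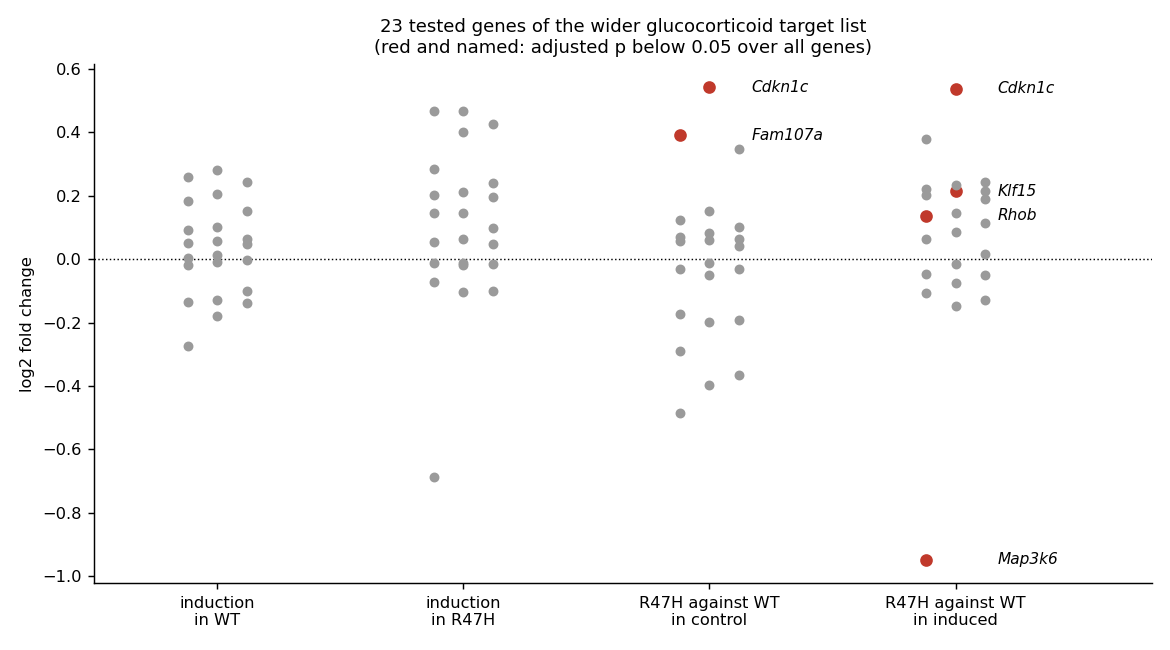
Log2 fold change (vertical axis) of the 23 tested genes of the wider target list in 4 comparisons (horizontal axis), 1 point per gene. Red named points passed over all tested genes: Cdkn1c and Fam107a in control mice, and Cdkn1c, Klf15, Rhob and Map3k6 in induced mice, and no point is red for the inductions.

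How the members varied together among mice of 1 group was read from deviations of log2 CPM from the group means over the 24 libraries. Of the 45 pairs, 37 had a positive Pearson r, with a median of 0.25. After Benjamini-Hochberg adjustment over the 45 pairs, 6 passed (permutation test, 100000 shuffles within groups), all positive, and 5 of them passed by Spearman's rho as well. Pairs of other genes were not tested in this way, so these counts have no background and are not shown to be particular to the members. Sgk1 and Tsc22d3 had the highest r, 0.79 (rho = 0.76; permutation p = 4e-05 and 0.00018; adjusted p = 0.0018 and 0.0081), which was 0.81 without the 2 libraries farthest from the median of Sgk1. Mice with high Sgk1 for their group were thus mostly those with high Tsc22d3.

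Klf9 passed with 3 partners. Its r was 0.66 with Tsc22d3 (rho = 0.70, permutation adjusted p = 0.0336 and 0.0117), 0.62 with Sgk1 (rho = 0.63, permutation adjusted p = 0.0364 and 0.0258) and 0.61 with Fkbp5 (rho = 0.68, permutation adjusted p = 0.0336 and 0.0117). Without the 2 farthest libraries these were 0.57, 0.56 and 0.62. Errfi1 had r = 0.57 with Tsc22d3 (rho = 0.56, permutation adjusted p = 0.0364 and 0.0535) and 0.54 with Sgk1 (rho = 0.58, permutation adjusted p = 0.0365 and 0.0331), and 0.50 and 0.57 without the 2 farthest. By Pearson r only 2 pairs passed without WT_induced replicate 6 and 1 with library totals. By rho 4 and 5 passed in these settings, against 6 in the main one, and 2 and 1 passed by both. The r of Sgk1 and Tsc22d3 was 0.78 and 0.79 in these settings. Arrdc2, the other member called with Sgk1 in induced mice, had no pair that passed, and its r with Sgk1 was 0.40. Nr3c1 had a mean r of 0.00 with the other members. Tsc22d3, Sgk1, Klf9, Errfi1 and Fkbp5, the genes of the passing pairs, also varied with other gene lists. Their r ran from 0.16 to 0.54 with excitatory neuron, 0.22 to 0.57 with astrocyte and 0.19 to 0.42 with endothelial markers. With clock genes it ran from 0.32 to 0.49, with choroid plexus markers from -0.31 to -0.03 and with blood markers from -0.33 to -0.10. With microglial markers their r ran from -0.20 to 0.54 and with immediate early genes from -0.26 to 0.48. With library depth, as the total count, it ran from 0.23 to 0.44. The part of these measures in the pairs was not tested.

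**Figure D4:**
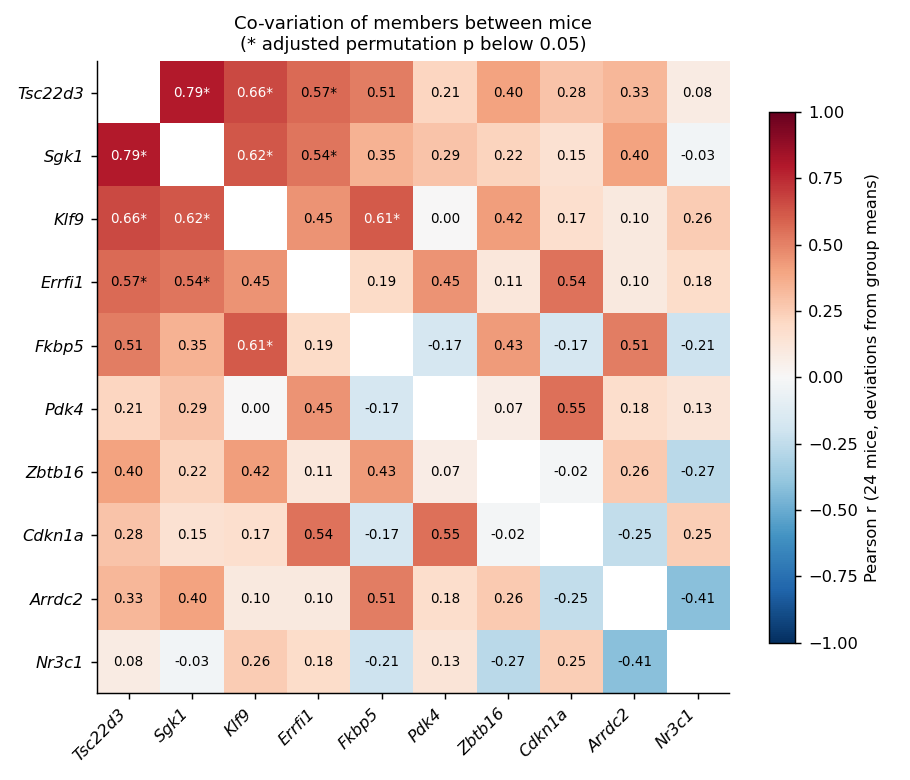
Pearson r of each pair of genes over 24 mice after removal of group means (colour and number). Asterisks mark the 6 pairs with an adjusted permutation p below 0.05; they join Tsc22d3, Sgk1, Klf9, Errfi1 and Fkbp5, and Nr3c1 lies outside them.

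**Figure D5:**
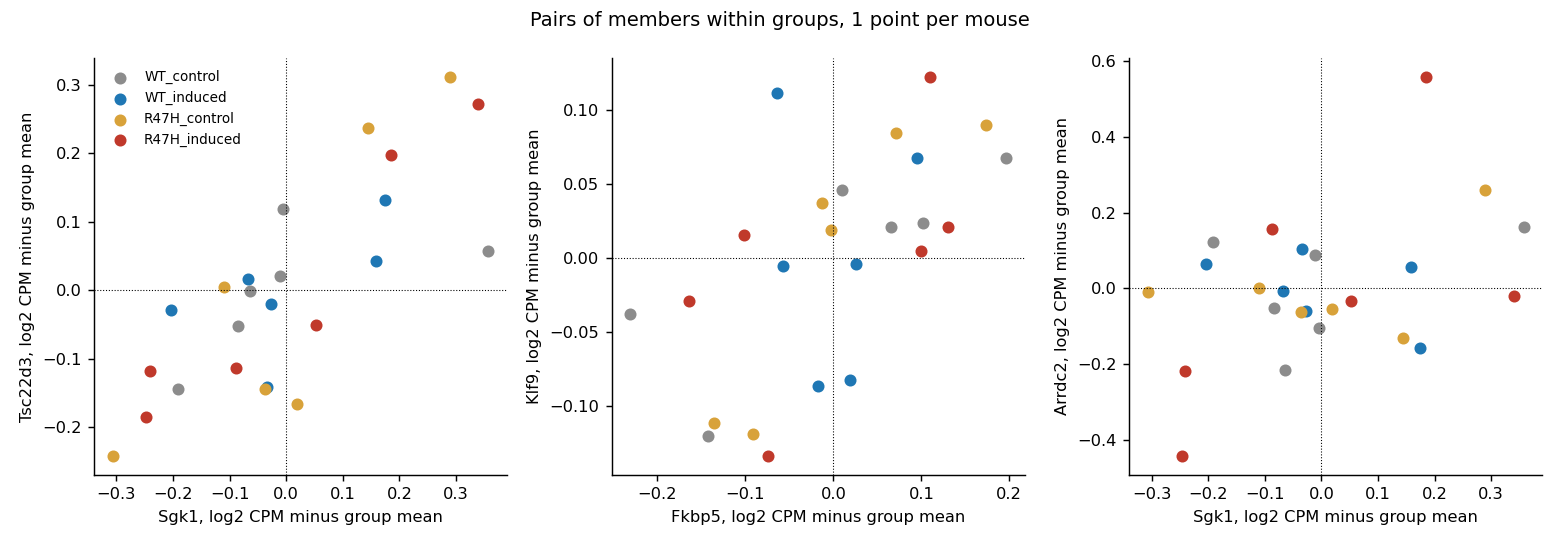
Deviation of log2 CPM from the group mean for 3 pairs of genes (both axes in log2 units), 1 point per mouse, coloured by group. Sgk1 and Tsc22d3 rise together (r = 0.79), Fkbp5 and Klf9 less tightly (r = 0.61), and Sgk1 and Arrdc2 loosely (r = 0.40).

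Single mice stood out in the mean of the 10 standardised deviations. R47H_control replicate 2 was highest at 1.27 SD, followed by R47H_induced replicate 2 at 0.95, and R47H_control replicate 6 was lowest at -1.04. The same R47H_control replicate 6 had the lowest level of Sgk1, Tsc22d3 and Klf9 among all 24 libraries. Among 13596 genes ranked by their likeness to that mean, the closest were Adipor2 (r = 0.88), Chst2 (0.82), Frmpd4 (0.81), Ppp1r3g (0.76), Plekha8 (0.76), Zfp366 (0.74), Rassf5 (0.74) and Plat (0.73), over 24 libraries. The median r of all ranked genes was 0.04, and 3.44% were above 0.5. Without WT_induced replicate 6 the r of these 8 genes ran from 0.71 to 0.86.

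The genes around the called members were counted as well. Within 1 Mb of Fkbp5, 13 of 41 tested genes were called by the mean of both line differences, 5 higher and 8 lower (31.7%, against 13.8% of all genes). The member Cdkn1a is 1 of these 41 genes, so Fkbp5 and Cdkn1a share a neighbourhood. Cdkn1a was not called there, at -0.15 (edgeR adjusted p = 0.107). Within 1 Mb of Arrdc2 the count was 23 of 82, 14 higher and 9 lower (28.0%), and within 1 Mb of Sgk1 it was 2 of 12, both higher (16.7%). In induced mice, where 5.8% of all genes were called, the counts were 8 of 41 around Fkbp5 (19.5%), 6 of 82 around Arrdc2 (7.32%) and 0 of 12 around Sgk1. These shares are descriptions of neighbourhoods, and their part in the values of Fkbp5 and Arrdc2 was not tested.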

How the data were processed

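Cortex RNA of 24 mice was sequenced, 1 library per mouse, after poly-A enrichment with the TruSeq RNA kit v2, per the labels' protocols. That kit does not mark strand. The authors deposited raw counts, whole numbers of reads for each gene. Per the submitters' processing notes, the tools included featureCounts 1.5.1 and STAR 2.5.2b, with mouse build mm10; the sources used here do not give the counting options or the annotation release. Library depth, as the total count, lay between 27933505 and 56082520. All 60 within-group pairs of libraries were further apart than sampling noise allows (chi-square per degree of freedom 4.31 to 61.7), and each library is 1 replicate. The series text counts mice, and p-values measure the spread between these mice; sex is not given per sample.

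Groups came from the genotype and treatment labels. The test was edgeR's robust quasi-likelihood F-test (version 4.0.16, R 4.3.3) after filterByExpr and TMM scaling, with 7 contrasts of 1 model of all 24 libraries. Benjamini-Hochberg adjustment ran over all 19678 tested genes, and genes below 0.05 were called. Fold changes are log2 values of the fit with standard errors and 95% intervals. Single members had, besides, an exact two-sided permutation test of log2(CPM + 0.1) over 924 assignments, and pairs were tested by shuffles within groups (scipy 1.17.1, numpy 2.4.6). Exon overlaps were read from GENCODE vM21. The fitting procedure was tested on simulated data.

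The members and lists were chosen with earlier results of these data known. All members are named; of the receptor and target lists, the called genes and otherwise the 2 with the lowest p in a comparison are named (mean contrasts: called genes only; 1 result is not reported here); the 8 most alike genes are those with a proper symbol and a mean CPM of at least 1. Alternatives were RLE size factors, library totals, other filters, DESeq2 1.42.0, limma-voom (limma 3.58.1), covariates for the rRNA-like share and for sex-linked expression, the 12 libraries of a comparison alone, leaving out each library in turn and a threshold of 0.1. A covariate for choroid plexus markers was added after seeing the data.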

Additional observations from a re-analysis of the deposited data

Results flagged for a closer look

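Of the 40 combinations of member and group, 2 held a library far from the other 5, about as many as the rule gives by chance (about 1 in 20 groups). Sgk1 in WT_control replicate 5 was at 71.6 CPM, with the next library at 55.7 CPM, a gap of 0.70 of the group's range. Without that library the induction of Sgk1 in WT mice was 0.11 on the log2 scale in place of 0.03, and R47H against WT in control mice was 0.10 in place of 0.02; neither passed. Arrdc2 in R47H_control replicate 2 was at 7.23 CPM, with the next library at 6.02 CPM, a gap of 0.69 of the range. Without it R47H against WT in control mice was 0.06 in place of 0.12, which did not pass either. That mouse was also the highest of the 24 in the mean deviation of the 10 genes.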

How the results depend on the processing

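No paired analysis was possible because the library numbers in the labels are not shared between groups. Sgk1 was called higher in induced R47H than in induced WT mice under every alternative run, at 0.44 to 0.48 under other settings and 0.37 to 0.49 with each library left out (edgeR, DESeq2 or limma adjusted p at most 0.0494). The members called in that comparison were 1 in the fit on the 12 libraries compared and 1 to 2 with each library left out. For the mean of both line differences they were 1 with no filter on low counts, 1 with choroid plexus markers as a covariate and 1 to 3 with each library left out. Fkbp5 was the member lost there, also in limma-voom (-0.13, adjusted p = 0.0629). Sgk1 was gained by DESeq2 (adjusted p = 0.0355), limma-voom (0.0358), the stricter filter (0.0468) and the threshold of 0.1. Cdkn1a was gained with the Y-linked to Xist ratio as a covariate (-0.14, adjusted p = 0.0348). With library totals 1 member, Klf9, was called for R47H against WT in control mice. In the co-variation 1 pair passed by Pearson r with library totals, against 6 with TMM and 2 without WT_induced replicate 6. By Spearman's rho these counts were 5, 6 and 4.

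Over all genes, DESeq2 called 10 in the induction in WT mice, 4 in R47H mice, 3 for the difference and 4 for the mean induction, where edgeR called 0. Leaving out a library gave 0 to 1, 0 to 2, 0 to 1 and 0 to 1 in the same order, and the fit on 12 libraries gave 1 in R47H mice. R47H against WT in control mice gave 451 genes with a covariate for the rRNA-like share and 1953 at the threshold of 0.1, against 1129; induced mice gave 1853 at that threshold, against 1142.

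The values that changed sign were small, and none had passed. With library totals these were the induction in WT mice of Sgk1 (-0.0088) and Klf9 (-0.017), the difference of inductions of Fkbp5 (0.029), Cdkn1a (0.013) and Nr3c1 (0.092), and R47H against WT in control mice of Sgk1 (-0.041), Errfi1 (-0.037) and Nr3c1 (-0.032). Klf9 in induced mice (0.0067) and the mean line difference of Zbtb16 (-0.010) did so too. With a covariate for the rRNA-like share they were the difference of inductions of Zbtb16 (-0.023) and Nr3c1 (0.024), and R47H against WT in control mice of Sgk1 (-0.020), Zbtb16 (0.033) and Errfi1 (-0.021). With choroid plexus markers it was Zbtb16 in control mice (0.0046). The cause was not tested.

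With each library left out, the induction in WT mice ran from -0.0060 to 0.11 for Sgk1 and -0.0024 to 0.038 for Klf9, and that in R47H mice from -0.011 to 0.050 for Fkbp5. The difference of inductions ran from -0.023 to 0.080 for Zbtb16 and -0.024 to 0.024 for Nr3c1. In control mice R47H against WT ran from -0.042 to 0.098 for Sgk1, -0.099 to 0.014 for Tsc22d3, -0.058 to 0.032 for Zbtb16, -0.0080 to 0.053 for Errfi1 and -0.089 to 0.025 for Pdk4. In induced mice it ran from -0.029 to 0.074 for Zbtb16, -0.051 to 0.00070 for Klf9 and -0.032 to 0.11 for Pdk4. The mean line difference ran from -0.020 to 0.035 for Zbtb16 and -0.040 to 0.032 for Pdk4. Counts of 147 to 576 reads limit the precision of Arrdc2.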
